A study of Mus musculus with 8 samples.

Results

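The 40 genes described here encode proteins of the skeletal muscle fibre and were taken by name from the 34745 genes of the deposited table. All 40 were found. They comprise 11 genes of the thick filament, 10 of the thin filament, 8 of the Z disc and scaffold, 6 of calcium handling and 5 of energy supply. RNA was sequenced from skin of 4 mice labelled normal and 4 mice labelled NcstnΔKC, all labelled male and killed at 16 weeks of age. The NcstnΔKC mice were Ncstn flx/flx; Krt14 CreER+/-, and the Krt14 promoter drives the inducible Cre recombinase in basal keratinocytes, not in muscle fibres. From 8 weeks of age they received tamoxifen at 20 mg/kg each day for 5 days and then every 10 days by gavage. Per the labels' protocol the controls carried the same alleles and were given corn oil, so that tamoxifen itself also differed between the groups, whereas their genotype label reads wildtype. The protocol calls the excised tissue skin lesions for both groups and gives neither the body site nor the depth of excision. No label says that animals were pooled.

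Skeletal muscle contracts when myosin of the thick filament pulls on actin of the thin filament. Calcium released from the sarcoplasmic reticulum starts contraction by binding troponin on the thin filament, and titin and the Z disc hold the filaments in register. Fast and slow fibres use different genes for many of these parts, and fast fibres are further divided by their myosin heavy chain into types IIa, IIx and IIb. In mouse skin such fibres form the panniculus carnosus, a sheet of striated muscle that lies beneath the dermal fat.

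Total counts ran from 5835422 to 8663753 in the normal libraries and from 11881506 to 12893174 in the NcstnΔKC libraries, so depth did not overlap between the groups. Ncstn ran from 58.4 to 61.9 CPM (the count over the scaled library size) in the normal libraries and from 50.2 to 66.8 CPM in the NcstnΔKC libraries, with a log2 fold change of -0.07 and an adjusted p of 0.663 in edgeR's quasi-likelihood test. In whole skin this level gave no check of the group labels. Although all mice were labelled male, normal replicates 3 and 4 and NcstnΔKC replicates 3 and 4 held 22304 to 37109 counts of Xist, the RNA of the inactive X chromosome, and the other 4 libraries held 4 to 9. Results are therefore also given for these sets of 4 libraries, with 2 a group. Values per library are given below in the order of replicates 1 to 4. No label ties a library to a separate animal by an identifier, and p-values measure the spread between these libraries.

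Promoters of 4 genes are shown because the fast myosin genes Myh4 and Myh1 were the most abundant myosins, while Tnnc2 had the lowest fold change and Ckm is an abundant enzyme of the same fibres. Each is the sequence of the 250 bases before the RefSeq transcript start in GRCm38.p6, written on the gene's strand. The windows are chr11:67237562-67237811 for Myh4 (plus strand), chr11:67199852-67200101 for Myh1 (plus strand), chr2:164779735-164779984 for Tnnc2 (minus strand) and chr7:19410844-19411093 for Ckm (plus strand). For 3 of these 4 genes the RefSeq start is not the edge of the locus used for the counts. The Tnnc2 window lies mostly within its locus (164777161 to 164779967), and the Myh1 window runs past its locus start (67200052). The Myh4 window ends before its locus start (67238029). Positions are therefore relative to the RefSeq starts. Capitals mark matches on either strand to CAGCTG or CACCTG, to TATAAA, to the MEF2 site and to the CArG box.
Myh4: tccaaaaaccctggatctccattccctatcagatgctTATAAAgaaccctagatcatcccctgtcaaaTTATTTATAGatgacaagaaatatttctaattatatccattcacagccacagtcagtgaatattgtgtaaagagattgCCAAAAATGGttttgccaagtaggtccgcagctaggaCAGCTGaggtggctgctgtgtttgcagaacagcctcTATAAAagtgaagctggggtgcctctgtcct
Myh1: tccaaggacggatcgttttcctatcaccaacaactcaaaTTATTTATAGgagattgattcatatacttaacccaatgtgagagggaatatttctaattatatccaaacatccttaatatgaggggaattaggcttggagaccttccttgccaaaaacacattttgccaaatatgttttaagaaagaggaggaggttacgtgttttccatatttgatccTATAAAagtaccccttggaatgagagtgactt
Tnnc2: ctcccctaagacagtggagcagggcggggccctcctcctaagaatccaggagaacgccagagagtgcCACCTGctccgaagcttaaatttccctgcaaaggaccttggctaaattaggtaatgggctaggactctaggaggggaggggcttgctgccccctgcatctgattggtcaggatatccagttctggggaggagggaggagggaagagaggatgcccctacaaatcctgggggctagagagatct
Ckm: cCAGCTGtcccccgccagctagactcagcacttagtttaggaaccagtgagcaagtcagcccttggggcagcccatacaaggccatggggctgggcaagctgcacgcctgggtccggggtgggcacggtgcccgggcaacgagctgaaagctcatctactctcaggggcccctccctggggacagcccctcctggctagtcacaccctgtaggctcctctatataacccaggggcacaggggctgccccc

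Myh4 and Myh1 both held the MEF2 site as TTATTTATAG, and this match contains TATAAA on the other strand. Each also held TATAAA close to the RefSeq start, at bases -31 to -26 in Myh4 and -32 to -27 in Myh1. The Myh4 window alone of the 4 held a CArG box, CCAAAAATGG. Windows of the slow myosin gene Myh7 were also marked but are not shown. Of the marked patterns they held only CACCTG, as CAGGTG at bases -62 to -57. RefSeq windows were matched for 33 of the 40 genes, as 40 windows, since some genes have several starts. The windows for Actn3, Myot, Neb, Tcap, Tnni2, Tnnt3 and Trdn were not matched. CAGCTG, an E-box that myogenic factors such as MyoD can bind, lay in 45.0% of the member windows and in 13.0% of all 32851 windows searched. The MEF2 site lay in 6 of the 40 member windows against 2.9% of all, and the CArG box in 12.5% against 1.5%. CACCTG lay in 22.5% against 17.2%, TATAAA in 17.5% against 12.4%, and CANNTG, the general E-box that includes CAGCTG and CACCTG, in 85.0% against 66.2%. These are matches of letters in a window, without a test.

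The muscle fibre genes took a large and variable part of the counts from skin. Together the 40 genes held 2.46%, 10.7%, 17.1% and 13.8% of all counts in the normal libraries, and 3.36%, 0.600%, 1.23% and 1.36% in the NcstnΔKC libraries. The means were 11.03% ± 6.28 (SD, n = 4) and 1.64% ± 1.20 (SD, n = 4). Long genes give more counts. As a share of summed FPKM (fragments per kilobase, relative to library size), the means were 6.13% and 0.84%. Normal replicate 1 was far below the other normal libraries, NcstnΔKC replicate 1 was above the other NcstnΔKC libraries, and these 2 libraries made the groups overlap. Titin (Ttn) alone held 42.2% to 49.7% of the member counts in the normal libraries and 48.3% to 60.1% in the NcstnΔKC libraries. Its gene model has 134526 bases. In FPKM, Ttn was below the myosin gene Myh4 in every library (91.0 to 579 against 500 to 4591 in the normal libraries). In bulk skin, fewer muscle fibres and less of these RNAs per fibre cannot be told apart.

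**Figure D1:**
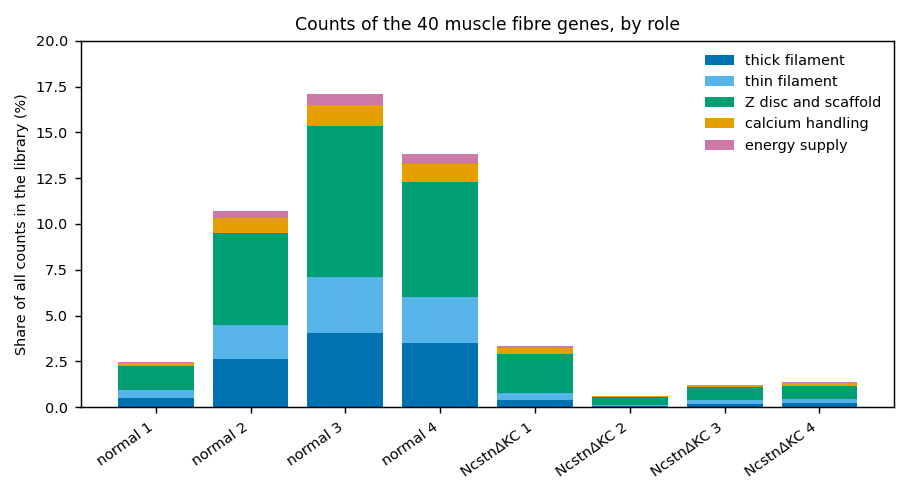
Share of all counts held by the 40 muscle fibre genes in each library (percent), stacked by role; each bar is 1 library. Normal replicates 2 to 4 reach 10.7% to 17.1%, whereas normal replicate 1, at 2.46%, lies below NcstnΔKC replicate 1, at 3.36%.

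Of the 40 genes, 35 passed the filter on low counts, and 34 of these were lower in NcstnΔKC skin past the threshold of 0.05 on the adjusted p. None rose. Over all 15684 genes tested, 22.7% fell and 21.4% rose. The median log2 fold change (NcstnΔKC minus normal) of the 35 genes was -3.39, with a range from -5.83 to -1.43, against a median of -0.02 over all genes tested. The groups did not overlap for 19 of the 35 genes, all lower in the NcstnΔKC libraries, against 20.7% of all genes. In the 4 libraries with Xist all 35 genes fell, with a median of -4.01, where 25.3% of all genes fell. In the 4 libraries without Xist 0 of 35 passed in edgeR's test, where 0.0446% of all genes fell. There the median was -2.35, all 35 fold changes were negative and 13 had an unadjusted p under 0.05. In a fit of all 8 libraries with an interaction of group and Xist, 34 of the 35 interaction terms were negative, with a median of -1.77 (a lower fold change with Xist), and the lowest adjusted p was 0.839. With 2 libraries in each cell this leaves undecided whether the change differed with Xist. Without both replicates numbered 1, all 35 genes fell, with a median of -4.21, where 24.6% of all genes fell.

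Adipocyte markers also fell, whereas basal keratinocyte markers rose. All 12 adipocyte markers were detected, and their summed share of counts was 0.0567% to 0.129% in the normal libraries and 0.00935% to 0.0508% in the NcstnΔKC libraries, without overlap. In normal replicates 1 to 4 this share was 0.0567%, 0.114%, 0.0611% and 0.129%, so replicate 3, highest in muscle, was low in adipocyte markers. Of these markers 10 fell, where 22.7% of all genes fell, with a median log2 fold change of -2.02. When normal replicate 4 was left out 6 of them fell, where 17.1% of all genes fell. They included Pparg, the master regulator of fat cells, at -1.96 ± 0.359 (SE, adjusted p = 0.00284), and Adrb3, an adrenergic receptor of fat cells, at -2.60 ± 0.486 (SE, adjusted p = 0.00314). Lep, the hormone leptin, was at -6.19 ± 1.04 (SE, adjusted p = 0.00196), but it missed the threshold among the libraries with Xist (-5.30, adjusted p = 0.0568). Lep had 0 counts in NcstnΔKC replicate 1, and no adipocyte marker was at 0 in every library of a group. The 8 basal keratinocyte markers held 0.474% to 0.688% of counts in the normal libraries and 1.06% to 1.71% in the NcstnΔKC libraries, and 7 of them rose. The part of fat and epidermis in the muscle result was not tested, nor was that of depth. Scaled by the basal keratinocyte markers, all 35 muscle genes fell, but so did 67.2% of all genes, whose median was then -1.08.

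Among thick filament genes, 8 of 11 were tested and all 8 fell, with a median of -3.14. Myh4, the myosin heavy chain of type IIb fibres (mm10, chromosome 11, 67238029 to 67260446), was the most abundant of them. It had 3315, 25372, 36307 and 30204 CPM in the normal libraries and 2817, 193, 535 and 978 CPM in the NcstnΔKC libraries. The groups did not overlap, but normal replicate 1 and NcstnΔKC replicate 1 lay close together. Its log2 fold change was -4.40 ± 0.98 (SE, adjusted p = 0.007), and -5.39 without NcstnΔKC replicate 1. Myh4 had the lowest fold change of the thick filament genes.

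Myh1, the heavy chain of type IIx fibres, had 1196, 1423, 6282 and 2261 CPM in the normal libraries and 466, 209, 660 and 462 CPM in the NcstnΔKC libraries. Every NcstnΔKC library was below every normal one, and normal replicate 3 was well above the rest. The log2 fold change was -2.63 ± 0.583 (SE, adjusted p = 0.00678), and -1.79 without normal replicate 3. Myh2, the heavy chain of type IIa fibres, had 82.8, 765, 1543 and 1456 CPM against 213, 22.5, 115 and 153 CPM. Here normal replicate 1 was below 3 of the 4 NcstnΔKC libraries. It was at -2.93 ± 0.882 (SE, adjusted p = 0.0247), a call that ended when any of normal replicates 3 and 4 or NcstnΔKC replicates 3 and 4 was left out (adjusted p from 0.0528 to 0.0633).

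Myh8, the perinatal heavy chain, was low, with 2.43, 9.07, 14.97 and 16.3 CPM in the normal libraries and 1.85, 0.410, 1.38 and 1.21 CPM in the NcstnΔKC libraries. The groups did not overlap, at -3.15 ± 0.617 (SE, adjusted p = 0.00394). Myh7, the heavy chain of slow fibres and of the heart ventricle, did not pass the filter. It had 1, 2, 1 and 1121 counts in the normal libraries and 0, 0, 5 and 1 counts in the NcstnΔKC libraries. Normal replicate 4 alone held it at more than a few counts.

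The fast light chains fell, and the slow ones were nearly undetected outside normal replicate 4. Mylpf, the fast regulatory light chain, had 74.1, 398, 718 and 682 CPM in the normal libraries and 74.8, 7.58, 34.7 and 50.4 CPM in the NcstnΔKC libraries (-3.48 ± 0.808, SE, adjusted p = 0.0083). Normal replicate 1 and NcstnΔKC replicate 1 were nearly equal. Myl1, the fast alkali light chain, had 165, 1098, 1668 and 1262 CPM against 114, 19.6, 57.7 and 79.0 CPM, without overlap (-3.96 ± 0.747, SE, adjusted p = 0.00333). Of their slow partners, Myl2 had 0, 0, 1 and 100 counts in the normal libraries and 0 counts in every NcstnΔKC library, where a count of 0 allows up to 0.201 to 0.252 CPM at a floor of 3 counts. Myl3 had 0, 0, 0 and 21 counts against 1, 0, 4 and 1 counts. As for Myh7, normal replicate 4 stood apart from all other libraries.

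Myosin-binding protein C stabilises the thick filament. Its fast form Mybpc2 had 107, 1225, 1813 and 1536 CPM in the normal libraries and 272, 34.8, 89.2 and 137 CPM in the NcstnΔKC libraries (-3.14 ± 0.853, SE, adjusted p = 0.0165), and was at -3.75 without NcstnΔKC replicate 1. Normal replicate 1 fell within the range of the NcstnΔKC libraries. The slow form Mybpc1 had 161, 291, 863 and 530 CPM against 130, 30.3, 105 and 111 CPM, without overlap. Its log2 fold change of -2.29 ± 0.578 (SE, adjusted p = 0.0119) was the highest of the thick filament genes.

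On FPKM (fragments per kilobase, relative to library size), a scale that takes account of gene length, the make-up of the 5 myosin heavy chains was compared within each library. Myh4 held 74.3%, 92.9%, 83.9% and 89.9% of their summed FPKM in the normal libraries and 82.4%, 48.2%, 43.6% and 64.2% in the NcstnΔKC libraries. Myh1 held 24.1%, 4.68%, 13.0% and 6.05% against 12.2%, 46.9%, 48.4% and 27.2%. Thus NcstnΔKC replicates 2 to 4 had less of type IIb and more of type IIx than any normal library, whereas NcstnΔKC replicate 1 lay within the normal range for both. Myh2 held 1.58% to 3.70% in the normal libraries and 4.81% to 8.57% in the NcstnΔKC libraries, and these ranges did not overlap. Myh7 reached 0.292% in normal replicate 4 and at most 0.0189% elsewhere. Myh8 stayed between 0.0169% and 0.0573%. The heavy chain genes share sequence, which limits these shares: of the distinct 31-base words of their transcripts, 42.9% in Myh1, 34.5% in Myh2 and 30.4% in Myh4 also occurred in another gene, including 7.23% of the Myh1 words in the antisense gene Myhas. How shared reads and strand were handled is not given in the sources used here.

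**Figure D2:**
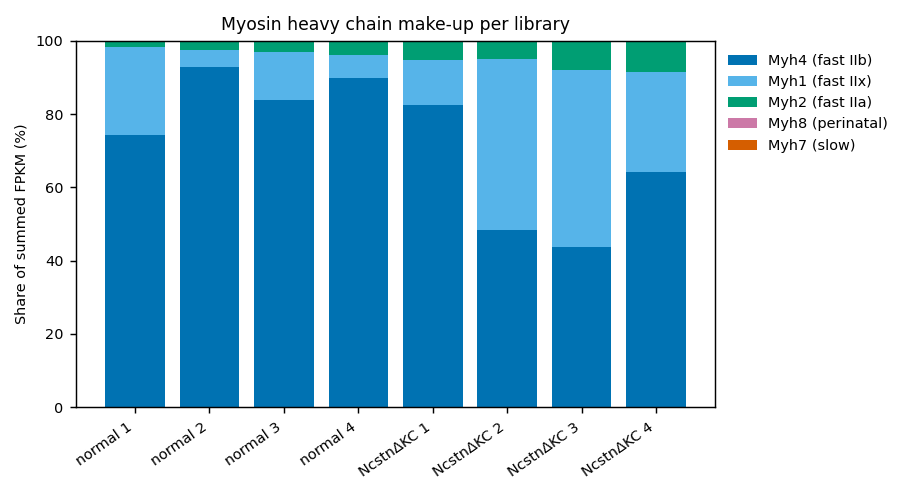
Make-up of myosin heavy chain transcripts in each library, as percent of the summed FPKM of Myh4, Myh1, Myh2, Myh8 and Myh7; each bar is 1 library. Myh4 forms 74.3% to 92.9% of the normal bars and 43.6% to 64.2% of the bars of NcstnΔKC replicates 2 to 4; Myh8 and Myh7 are too small to see.

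Among thin filament genes, 8 of 10 were tested and all 8 fell, with a median of -4.15 (-3.35 without normal replicate 4) and 7 without overlap. The lowest was Tnnc2, the calcium-binding troponin C of fast fibres (mm10, chromosome 2, 164777161 to 164779967). It had 195, 1110, 1639 and 1387 CPM in the normal libraries and 47.4, 4.78, 9.61 and 14.3 CPM in the NcstnΔKC libraries. Every NcstnΔKC library was below normal replicate 1. Its fold change was -5.83 on the log2 scale ± 0.926 (SE, adjusted p = 0.00154), and -6.82 without NcstnΔKC replicate 1. Of the 31-base words of Tnnc2, 59.0% also occurred in its neighbour Ube2c, so reads may be split between them.

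The other fast troponins did not share such words with any gene. Tnni2, the inhibitory troponin I of fast fibres, had 255, 1287, 2235 and 1709 CPM in the normal libraries and 91.5, 12.1, 28.8 and 46.3 CPM in the NcstnΔKC libraries (-4.94 ± 0.814, SE, adjusted p = 0.00181). Tnnt3, the fast troponin T that ties the complex to tropomyosin, had 726, 3759, 6766 and 4870 CPM against 206, 37.9, 86.7 and 137 CPM (-5.11 ± 0.777, SE, adjusted p = 0.00128). Neither gene overlapped between the groups. Without NcstnΔKC replicate 1, Tnni2 stood at -5.56.

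Of the slow troponins, Tnnt1 alone passed the filter, and only through the normal libraries, since it was under 1 CPM in every NcstnΔKC library. It had 2.89, 4.64, 4.80 and 44.3 CPM in the normal libraries and 0.671, 0.410, 0.691 and 0.336 CPM in the NcstnΔKC libraries. The groups did not overlap, and normal replicate 4 was far above the other normal libraries. The log2 fold change of -4.74 ± 0.992 (SE, adjusted p = 0.00527) became -2.89 (adjusted p = 0.00169) without that library. The slow troponin C gene Tnnc1 had 1, 1, 0 and 68 counts against 0, 1, 0 and 2 counts. The slow troponin I gene Tnni1 had 3, 7, 2 and 42 counts against 1, 3, 13 and 8 counts. Both were again highest in normal replicate 4.

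Acta1, the skeletal muscle actin, had the highest fold change of the thin filament genes. It had 570, 3870, 5263 and 5278 CPM in the normal libraries and 1083, 84.9, 497 and 603 CPM in the NcstnΔKC libraries. Normal replicate 1 lay within the NcstnΔKC range. On the log2 scale it was at -2.72 ± 0.82 (SE, adjusted p = 0.0248), and the call ended without any of normal replicates 3 and 4 or NcstnΔKC replicates 3 and 4 (adjusted p from 0.0574 to 0.0644). The tropomyosins Tpm1 and Tpm2, which cover actin at rest, and nebulin (Neb), which runs along the thin filament, fell by 3.17, 3.56 and 3.39 on the log2 scale, without overlap.

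Among the 8 Z disc and scaffold genes 7 fell, with a median of -2.71 (-3.46 without NcstnΔKC replicate 1). The lowest was Ky, a protease-like protein that muscle needs for its maintenance (mm10, chromosome 9, 102505750 to 102546239). Ky had 19.9, 76.2, 110 and 111 CPM in the normal libraries and 0.671, 0.888, 1.38 and 2.55 CPM in the NcstnΔKC libraries. The gap between the groups was wide and included both replicates numbered 1. On the log2 scale Ky was at -5.82 ± 0.645 (SE, adjusted p = 0.00031). Ky shared no 31-base word with another gene.

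Actn2, an actinin that crosslinks actin at the Z disc, was the tested member that did not pass. It had 78.4, 170, 477 and 303 CPM in the normal libraries and 162, 29.9, 89.9 and 102 CPM in the NcstnΔKC libraries. The groups overlapped, at -1.43 ± 0.598 (SE, adjusted p = 0.0809). Actn2 passed in the libraries with Xist alone (-1.99, adjusted p = 0.00119), without normal replicate 1 (-1.67, adjusted p = 0.0352) and in DESeq2's Wald test (-1.40, adjusted p = 0.0307). The fast-fibre actinin Actn3 was at -3.82 ± 0.938 (SE, adjusted p = 0.0106), and at -4.67 without NcstnΔKC replicate 1.

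Ttn, the giant spring of the sarcomere, had 12557, 55277, 95233 and 63963 CPM in the normal libraries and 20114, 3099, 5732 and 5670 CPM in the NcstnΔKC libraries. NcstnΔKC replicate 1 exceeded normal replicate 1. The log2 fold change was -2.71 ± 0.746 (SE, adjusted p = 0.0171), was -3.55 without NcstnΔKC replicate 1, and lost its call without NcstnΔKC replicate 3 (adjusted p = 0.0506). The remaining genes of this role were Ldb3 and Tcap, without overlap, and Des and Myot, with overlap, at -3.63, -2.71, -2.03 and -1.98. Ldb3 and myotilin (Myot) are Z disc proteins, Tcap binds the end of titin, and desmin (Des) is the intermediate filament between Z discs. Tcap was at -3.36 without NcstnΔKC replicate 1. Myot was at -1.37 (adjusted p = 0.0859) without normal replicate 3, and its call ended without any of 4 other libraries.

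All 6 calcium handling genes fell, with a median of -3.28 (-4.00 without NcstnΔKC replicate 1). Casq1, the calcium buffer of the sarcoplasmic reticulum in fast fibres, was the lowest. It had 52.2, 492, 655 and 691 CPM in the normal libraries and 21.6, 2.73, 7.81 and 9.60 CPM in the NcstnΔKC libraries, without overlap. The log2 fold change was -5.50 ± 0.902 (SE, adjusted p = 0.00177), and -6.13 without NcstnΔKC replicate 1. Atp2a1, the calcium pump of fast fibres, was the highest of this role. It had 1031, 5308, 7581 and 6234 CPM against 2461, 361, 729 and 851 CPM, so that NcstnΔKC replicate 1 exceeded normal replicate 1. Atp2a1 was at -2.19 ± 0.706 (SE, adjusted p = 0.0323). It was -2.96 without NcstnΔKC replicate 1, and the call ended without any of 6 other libraries (adjusted p from 0.0572 to 0.0834). Of the remaining genes, the calcium release channel Ryr1 was at -2.62, its voltage sensor Cacna1s at -2.74 and its partner triadin (Trdn) at -3.82. The soluble calcium buffer parvalbumin (Pvalb) was at -3.94, and at -5.23 without NcstnΔKC replicate 1. Without that library Ryr1, Cacna1s and Trdn were at -3.36, -3.57 and -4.43. The call of Cacna1s ended without NcstnΔKC replicate 3 or 4 (adjusted p = 0.0552 and 0.0521).

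All 5 energy supply genes fell, with a median of -3.63 (-4.55 without NcstnΔKC replicate 1). Pgam2, the muscle phosphoglycerate mutase of glycolysis, had 55.4, 292, 492 and 330 CPM in the normal libraries and 10.8, 3.21, 8.43 and 12.6 CPM in the NcstnΔKC libraries. Every NcstnΔKC library, replicate 1 included, was below every normal one, at -5.06 ± 0.695 (SE, adjusted p = 0.000796). Pygm, the muscle phosphorylase that breaks down glycogen, was the highest, with 171, 1173, 1828 and 1365 CPM against 440, 56.03, 115 and 132 CPM. Its groups overlapped, at -2.61 ± 0.789 (SE, adjusted p = 0.0252). It was at -3.49 without NcstnΔKC replicate 1, and the call ended without any of 5 other libraries (adjusted p from 0.0546 to 0.0686). Muscle creatine kinase (Ckm) was at -3.63, myoglobin (Mb), the oxygen store, at -3.97 and muscle enolase (Eno3) at -2.72. Without NcstnΔKC replicate 1 these were -4.55, -5.42 and -3.38.

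**Figure D3:**
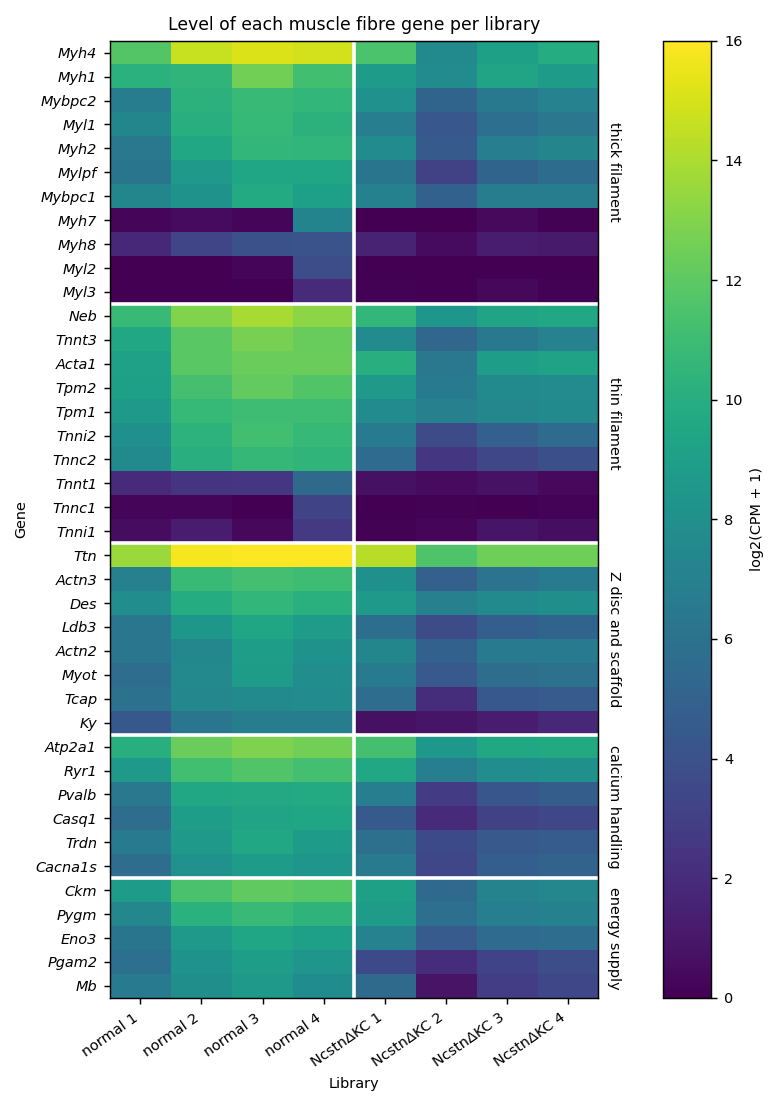
Level of each of the 40 genes (rows, by role) in each library (columns), as log2(CPM + 1); white lines part the roles and the groups. Columns of normal replicates 2 to 4 are the brightest, NcstnΔKC replicate 2 is the darkest, and the slow genes Myh7, Myl2, Myl3 and Tnnc1 are lit in normal replicate 4 alone.

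Fast and slow forms were compared within each library, because a ratio of 2 genes needs no scaling between libraries. For 9 pairs the log2 ratio of fast to slow counts, with 0.5 added to each, was tested by an exact two-sided permutation test, in which 4 against 4 libraries cannot go below p = 0.0286. No pair passed with all 8 libraries, with or without adjustment, and under adjustment over 9 pairs this design has little room to pass. Tnni2/Tnni1 differed most by its p, with a mean log2 ratio of 9.89 ± 1.92 (SD, n = 4) in the normal libraries and 6.62 ± 2.01 (SD, n = 4) in the NcstnΔKC libraries (exact permutation p = 0.0857, adjusted p over 9 pairs = 0.429). Without NcstnΔKC replicate 1 that pair reached the smallest p its design allows, at a difference of -4.23 (exact permutation p = 0.0286, adjusted p = 0.257). Myl1/Myl3 and Tnnc2/Tnnc1 differed by -2.92 and -3.28 (exact permutation p = 0.114 and 0.143, adjusted p = 0.429 for both). Without normal replicate 4, Myl1/Myl3 was at -3.97 (exact permutation p = 0.0286, adjusted p = 0.257). For Myh4/Myh7 the ratio was 13.8, 15.6, 17.4 and 7.69 in the normal libraries and 16.0, 12.5, 10.5 and 13.2 in the NcstnΔKC libraries (exact permutation p = 0.829, adjusted p = 0.932). The lowest value belonged to normal replicate 4, the library with 1121 Myh7 counts. The other 5 pairs had adjusted p from 0.566 to 1, and every pair overlapped. In all 8 libraries fast forms exceeded slow ones for every pair but Mybpc2/Mybpc1, whose log2 ratio was -0.59 in normal replicate 1 and -0.24 in NcstnΔKC replicate 3. Apart from Mybpc1 and Tnnt1, the slow genes mostly had a few counts, so that these ratios have low precision. Where the slow gene is at 0 the ratio also depends on the added 0.5 and on depth, as for Mylpf/Myl2 in every NcstnΔKC library.

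The fall was unequal among the muscle genes. To describe this, counts were divided by a size factor taken from the 35 tested members themselves, a median of ratios, which sets each gene against the middle of the members and does not equalise their sum. On this scale 7 genes were lower in every NcstnΔKC library than in every normal one, 8 were higher and 20 overlapped. Over all genes tested, the same scale put 0.23% lower and 48.6% higher without overlap, as genes outside muscle rise by construction. The values are a description, with no test.

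The 7 genes lower relative to the other muscle genes were Tnnc2 (a log2 difference of -2.73), Ky (-2.50), Casq1 (-2.09), Tnnt3 (-1.73), Tnni2 (-1.68), Pgam2 (-1.61) and Myh4 (-1.34). Tnnt3 had scaled counts of 8602, 9769, 9825 and 9292 in the normal libraries and 2475, 2936, 2508 and 3485 in the NcstnΔKC libraries. Tnni2 had 3028, 3345, 3246 and 3260 against 1101, 938, 834 and 1173. Both thus varied little within a group, including in the replicates numbered 1. The fast troponin C, I and T genes were all among these 7.

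The 8 genes higher relative to the other muscle genes were Actn2 (1.88), Myot (1.45), Des (1.38), Atp2a1 (1.02), Pygm (0.65), Ryr1 (0.64), Eno3 (0.64) and Cacna1s (0.42). Actn2 had scaled counts of 929, 441, 693 and 577 in the normal libraries and 1944, 2316, 2600 and 2574 in the NcstnΔKC libraries. Atp2a1 had 12224, 13794, 11009 and 11894 against 29619, 28017, 21094 and 21575. Of the other Z disc and scaffold genes, Ky was among the lowest, and Actn3, Ldb3, Tcap and Ttn overlapped. Neb was nearly level between the groups on this scale. Across the 35 genes the fold change in CPM had a Spearman correlation of 0.338 with the authors' gene model length, against -0.0124 across all genes tested. Genes share libraries and are not independent replicates, and the part of transcript length or RNA quality was not tested.

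**Figure D4:**
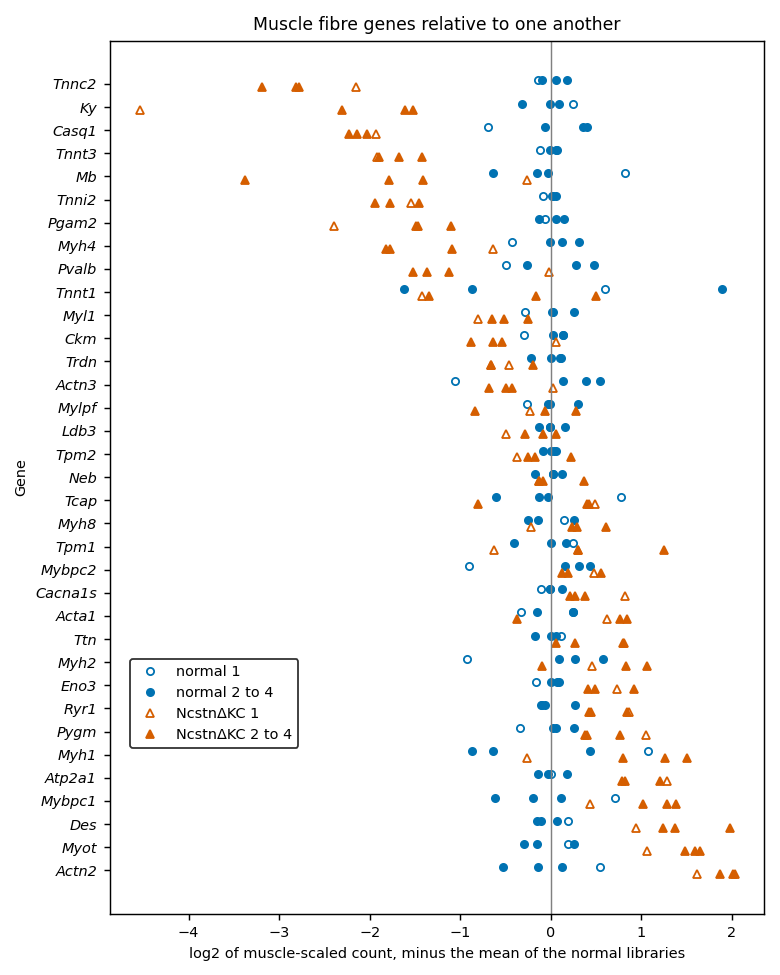
Muscle-scaled counts of the 35 tested genes per library (log2, minus the mean of the normal libraries), sorted by the difference between groups; circles are normal and triangles NcstnΔKC libraries, and open symbols mark replicate 1. Tnnc2, Ky, Casq1, Tnnt3, Tnni2, Pgam2 and Myh4 lie to the left in all 4 NcstnΔKC libraries, and Actn2, Myot and Des lie to the right.

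The replicates numbered 1 had like shares of muscle counts (2.46% and 3.36%) and so show the make-up at a similar amount, with 1 library a group and no test. In CPM, 16 of the 35 genes were higher in NcstnΔKC replicate 1 and 19 were lower. Ky had 0.0337 times the normal level, Pgam2 0.195 times, Tnnc2 0.244 times, Tnnt3 0.283 times and Tnni2 0.358 times. At the other end Pygm had 2.58 times, Myh2 2.57 times, Mybpc2 2.55 times and Atp2a1 2.39 times the normal level. The fast troponins and Ky were therefore lower in this library although Ttn was 1.60 times as high.

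Of 51 other genes of striated muscle, all tested, 39 fell and 0 rose, where 22.7% of all genes fell and 21.4% rose. Their median log2 fold change was -2.38. Without NcstnΔKC replicate 1, 43 fell, with a median of -3.01, where 25.6% of all genes fell. Lmod3, which helps thin filaments form, had 8.96, 51.6, 80.2 and 80.9 CPM in the normal libraries and 2.85, 1.43, 2.35 and 2.42 CPM in the NcstnΔKC libraries (-4.61 ± 0.64, SE, adjusted p = 0.000832). Cox6a2, a muscle subunit of cytochrome oxidase, and Hrc, a calcium-binding protein of the sarcoplasmic reticulum, were at -4.40 and -4.89, without overlap, and at -4.99 and -5.51 without NcstnΔKC replicate 1. This list too gave no call in the libraries without Xist.

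Genes of satellite cells and muscle regulators were tested for 13 of 20, and 8 fell and 0 rose, where 22.7% of all genes fell and 21.4% rose. Myod1, the regulator that commits cells to muscle, was at -2.64 ± 0.562 (SE, adjusted p = 0.00552). Mef2c, a partner of the MyoD family, had 69.2, 163, 300 and 164 CPM against 25.8, 16.8, 23.8 and 25.7 CPM (-2.92 ± 0.399, SE, adjusted p = 0.000776). Pax3, which marks some muscle precursors and also melanocytes, was at -2.69 ± 0.345 (SE, adjusted p = 0.000562). Ncam1, an adhesion molecule of satellite cells and nerve, was at -0.98 ± 0.193 (SE, adjusted p = 0.00394), and missed the threshold in limma on log2 FPKM (adjusted p = 0.0523). Myogenin (Myog), with -1.82 ± 0.717 (SE, adjusted p = 0.0658), did not pass. Nor did the other Mef2 genes listed, Mef2a (-0.06, adjusted p = 0.779) and Mef2d (-0.24, adjusted p = 0.492). Their means were 214 and 111 CPM in the normal libraries and 206 and 94.2 CPM in the NcstnΔKC libraries. Megf10 (-0.91, adjusted p = 0.0767) and Cdh15 (-1.29, adjusted p = 0.217) also did not pass. Pax7, Myf5, the embryonic myosin Myh3 and the fusion genes Tmem8c and Gm7325 (also called Mymk and Mymx) were below the filter.

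At the neuromuscular junction 8 of 11 genes were tested, and 3 fell and 1 rose, where 22.7% of all genes fell and 21.4% rose. Rapsn, Chrna1, Musk and Dok7 did not pass (adjusted p from 0.133 to 0.638). Without NcstnΔKC replicate 1 the number of these 8 genes that fell was 5, and it was 7 in the libraries with Xist and without both replicates numbered 1. Ache, the enzyme that breaks down acetylcholine, had 22.2, 14.9, 19.6 and 28.7 CPM in the normal libraries and 1.17, 0.478, 0.760 and 1.95 CPM in the NcstnΔKC libraries (-4.28 ± 0.416, SE, adjusted p = 0.000178). Chrnb1, a subunit of the acetylcholine receptor, was at -1.45 ± 0.394 (SE, adjusted p = 0.0159), and Lrp4, the agrin receptor, at -0.89 ± 0.267 (SE, adjusted p = 0.0242). Ache and Lrp4 (276 and 144 CPM) were higher in normal replicate 1 than in replicate 2, unlike the muscle share and Chrnb1 (5.16 and 9.27 CPM). Agrn, the matrix protein agrin, was at 0.64 ± 0.12 (SE, adjusted p = 0.00319) but at -0.43 when scaled by basal keratinocyte genes. Of the 11 genes of the dystrophin complex, which ties the fibre to its matrix, 8 fell, with a median of -1.71. They included Sspn at -1.92, Sgcd at -2.18 and Utrn at -1.16, all without overlap. Utrn was higher in normal replicate 1 than in replicate 2 (685 and 507 CPM), whereas Sspn and Sgcd were lower.

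Heart and smooth muscle markers were checked because they share proteins with skeletal fibres. The cardiac genes Nppa and Nkx2-5 had 0 counts in every library, Myh6 had at most 4 counts and Myl7 at most 1. Others were detected. The cardiac troponin T gene Tnnt2 had 26.7, 15.3, 34.7 and 26.7 CPM in the normal libraries. In the NcstnΔKC libraries it had 23.5, 3.35, 3.25 and 2.42 CPM (-1.68, adjusted p = 0.0845). Tnni3 (-0.86, without overlap), Tbx5 (-1.85) and Ryr2 (-1.28) also did not pass (adjusted p from 0.0585 to 0.241). Where 22.7% of all genes fell and 21.4% rose, 2 of 7 cardiac genes tested fell and 1 rose. The number of cardiac genes that fell was 1 without any of 6 single libraries and 4 without NcstnΔKC replicate 1. Myl4, an atrial and embryonic light chain, was at -0.93 ± 0.319 (SE, adjusted p = 0.0407), a call that ended in those 6 fits. Actc1, the actin of heart and developing muscle, fell to 0.0839 to 0.415 CPM from 1.21 to 12.3 CPM (-4.66 ± 0.742, SE, adjusted p = 0.00154). Nppb, a natriuretic peptide, rose to 2.18 to 6.08 CPM from 0 to 0.304 CPM (4.75 ± 0.663, SE, adjusted p = 0.00082), and its fitted value was 5.36 without normal replicate 1. With 4 counts in all normal libraries, the size of this change has low precision. Of 12 smooth muscle genes 9 fell and 1 rose, with a median of -1.33. Smooth muscle myosin Myh11 had 262, 224, 277 and 322 CPM in the normal libraries and 84.8, 34.0, 32.8 and 36.6 CPM in the NcstnΔKC libraries.

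Relatives of the members that are widely used outside skeletal muscle did not move one way. Of 19 such genes 8 rose and 6 fell, with a median of -0.11. Eno1, the general enolase, rose by 2.02 ± 0.175 (SE, adjusted p = 0.000127), whereas its muscle form Eno3 was at -2.72. Atp2a2, the calcium pump of most cells, had 185, 245, 227 and 203 CPM against 587, 672, 615 and 553 CPM, and its log2 fold change of 1.497 was 0.42 (adjusted p = 0.0815) when scaled by basal keratinocyte genes. Pgam1, the general phosphoglycerate mutase, was at 1.54 against -5.06 for Pgam2. Ckb, the brain-type creatine kinase, was at -1.24 and non-muscle myosin Myh10 at -1.91. Of 8 fibroblast markers 1 fell. In the libraries with Xist, where 26.0% of all genes rose and 25.3% fell, 6 of these 8 rose and 1 fell, with a median of 1.0. In those without Xist none of the 8 passed, with a median of -0.77. Their share of counts was 3.31%, 2.96%, 0.389% and 0.505% in the normal libraries, high in replicates 1 and 2, and 0.453%, 1.17%, 1.35% and 1.5% in the NcstnΔKC libraries. Normal replicates 1 and 2 had Col1a1, a collagen chain of fibroblasts, at 14467 and 15360 CPM, and replicates 3 and 4 at 748 and 885 CPM. The part of this split in the muscle values was not tested. Of 8 endothelial markers 2 fell and 1 rose, and of 8 Schwann cell markers 4 fell, where 22.7% of all genes fell and 21.4% rose. The endothelial counts were near these shares. The medians of the fibroblast, endothelial and Schwann cell lists over all 8 libraries were -0.11, -0.15 and -0.96.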

How the data were processed

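RNA sequencing of 8 skin samples, 4 normal and 4 NcstnΔKC, was deposited as 1 table. The authors deposited raw whole-number counts per gene and FPKM values. Per the submitters' processing notes, TopHat2 2.0.9, TopHat and HTSeq were used and the builds mm10 and hg38 are named, without a role. Settings, strand and annotation release are not given in the sources used here. Of the 40 loci, 31 have identical coordinates in GENCODE M21 for mm10. The deposited FPKM equalled counts over the library total times a gene constant (14138 genes with at least 50 counts, relative spread at most 1.85e-05).

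Genes were filtered with filterByExpr (15684 of 34745 left), scaled by TMM and tested with edgeR 4.0.16's robust quasi-likelihood test, two-sided, with Benjamini-Hochberg adjustment over all genes tested and a threshold of 0.05. CPM were computed from the TMM-scaled totals of the tested genes. Tnnt1, Lep, Pax3, Actc1, Nppb and the Schwann cell marker S100b passed the filter through 1 group alone, with under 1 CPM in every library of the other. Their calls and lack of overlap are not independent of the filter. Alternatives used DESeq2 1.42.0, limma 3.58.1 (with 1 added to FPKM on the log2 scale), other scalings and filters, subsets of libraries and a replicate block. In simulated data for this comparison (15684 genes), every gene had the same spread (dispersion). There 29.9%, 98.6% and 100% of genes changed 2-, 4- and 8-fold were recovered, with 6 false calls of 158. Many muscle genes varied more within a group (Ttn in NcstnΔKC, mean 8654 CPM, SD 7738), so these rates need not hold for them. No 2 libraries of a group agreed within sampling noise. Floors cover counting error only.

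The members and all lists (220 entries, all matched, 2 of them by Ensembl ID) were chosen with earlier results of these data known. Genes given by library were the myosin heavy chains, the genes of the 9 pairs, and the lowest and highest log2 fold change of each role, and the 3 lowest p-values of each other list were available for naming. Other genes were named where a group is described, some after their values were seen. Shared 31-base words were counted over GENCODE M21 transcripts.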

Additional observations from a re-analysis of the deposited data

Results flagged for a closer look

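Within the groups of 4 libraries, 6 of 100 sets of values examined had a library farther from the rest than Dixon's 95% critical value for the gap over the range, where chance flags about 1 in 20. Of these 6, 5 were genes of slow fibres in normal replicate 4. Myh7 stood at 146 CPM there, against 0.141 to 0.403 CPM in the other normal libraries. Myl2 stood at 13.0 CPM, against at most 0.141 CPM. Myl3 stood at 2.74 CPM, against 0 counts in the other normal libraries. Tnnc1 stood at 8.86 CPM, against at most 0.202 CPM. Tnnt1 stood at 44.3 CPM, against 2.89 to 4.80 CPM. The sixth was Ttn in NcstnΔKC replicate 1, at 20114 CPM against 3099 to 5732 CPM in the other NcstnΔKC libraries.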

How the results depend on the processing

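The count of 34 muscle genes lower stayed between 26 and 35 under the other scalings, tools and filters, and between 27 and 35 when each library was left out. In the libraries without Xist alone it was 0, as was the count of 92 for the other lists, which ran from 73 to 104 when each library was left out. The 1 CPM filter selected the same genes as the main one, and the 5 CPM filter and the fit without normal replicates 1 and 4 were chosen after seeing the data. With limma-voom the calls of Myh2 and Myot ended, and with limma on log2 FPKM those of Myh2, Tnnt1 and Myot. DESeq2's Wald test gave no adjusted p for Tnnt1. With no filter 8 calls ended (Myh2, Mybpc2, Acta1, Myot, Atp2a1, Ryr1, Cacna1s and Pygm), and with Xist as a covariate that of Atp2a1 (adjusted p = 0.0543). With the replicate number as a block the muscle count was 22 (19.5% of all genes lower), and the calls of Myh2, Mybpc2, Acta1, Ttn, Actn3, Des, Myot, Atp2a1, Ryr1, Cacna1s, Eno3 and Pygm ended. By list, the block left 3 genes lower in each of Z disc, calcium and energy, 23 of other striated muscle, 5 of muscle regulators and 6 of adipocytes. No label says that the replicate numbers pair animals. With 4 numbers, the correlations of same-numbered deviations (-0.018, -0.032, -0.013 and 0.218) cannot decide this, and only replicate 4 best matched its own number. In both groups replicates 1 and 2 were without Xist and replicates 3 and 4 held it. The block is thus a fit on a shared number that goes with Xist. The difference in muscle share was -9.39 percentage points, -14.2 in the libraries with Xist, -4.61 in those without, and -12.3 to -7.37 when each library was left out. As a share of summed FPKM it was -5.29. The number of pairs that passed was 0 in every setting, but this says nothing of stability, since with 2 or 3 libraries a group the smallest p is 0.333 or 0.1. Total counts, log2 FPKM and basal keratinocyte scaling moved the median of all genes to 0.305, 0.204 and -1.08. With the last, the sign turned for Agrn (-0.43), Pdgfra (-0.62), Lum (-0.53) and Vwf (-0.40). Pair differences near 0 also turned. Mylpf/Myl2 was 1.55 in the libraries with Xist. When each library was left out, Mylpf/Myl2 ran from -1.42 to 0.66, Myh4/Myh7 from -2.56 to 0.67, Myh1/Myh7 from -0.66 to 2.98 and Myh2/Myh7 from -0.51 to 2.66. The causes were not tested. Leaving out NcstnΔKC replicate 1 moved 17 of the 35 muscle genes and 36 of the 165 other list genes by more than 1.5 times. Depth limits Myh7, Myl2, Myl3, Tnnc1 and Tnni1, with at most 13 counts in all libraries but normal replicate 4.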
